A study of Mus musculus with 5 samples.

Results

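The ribosome of the cytosol is built from a large and a small subunit, each an assembly of ribosomal RNA and of ribosomal proteins present mostly in equal numbers, and it translates nearly all the mRNAs of the cell. The mRNAs of its proteins belong to the TOP class, named after a terminal oligopyrimidine tract at the 5′ end, and their translation is switched on through the growth regulator mTORC1, which also drives the phosphorylation of ribosomal protein S6. ATF4, a transcription factor of the integrated stress response, is made when general translation is slowed and acts on genes of amino acid supply, so that the machinery of translation lies on both sides of it.

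The genes described here are the 83 protein-coding mouse genes of cytosolic ribosomal proteins, of 52022 genes in the table, picked by symbol alone and with no measured value: Rpl or Rps followed by a number and at most a short suffix, with Rpsa, Rplp0, Rplp1 and Rplp2 and without the S6 kinases. They hold 51 genes of the large subunit and 32 of the small subunit. Of these, 6 are paralogs whose symbol ends in a letter l or l1 (Rpl3l, Rpl7l1, Rpl10l, Rpl22l1, Rpl39l, Rps27l), and the remaining 77 are called the core genes below.

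RNA from interscapular brown adipose tissue (BAT) of single mice was sequenced after 3 days in the cold, from 3 mice lacking ATF4 in thermogenic adipocytes (ATF4 BKO) and 2 wild-type (WT) littermates. ATF4 BKO mice were Atf4 fl/fl with a transgene that drives Cre from the Ucp1 promoter, and WT mice carried the Atf4 fl/fl allele in the absence of Cre. All were labelled male and came from a C57Bl/6J background, at an age of 10 to 12 weeks, and were kept at 30 °C before being moved to 4 °C with free access to food. Cre acts only in cells that have used the Ucp1 promoter, so that vessels, blood and immune cells of the tissue keep Atf4, and no mice with Cre alone were among the 5. In RNA from whole tissue, fewer cells of a type and less RNA per cell cannot be told apart.

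Each library held 24698337 to 32452751 estimated counts. Atf4 was present at 32.6, 52.6 and 23.5 CPM (counts scaled by library size with edgeR's TMM factors) in ATF4 BKO 1, 2 and 3 and at 286 and 226 CPM in WT 1 and 2, a log2 fold change of -2.82 ± 0.34 (SE), with an adjusted p of 0.671 in edgeR's quasi-likelihood test and of 9.72e-12 in DESeq2. The library ATF4 BKO 1 held 4598 counts of Xist although its label says male, so that values without it are given where they differ. Ucp1, the uncoupling protein that defines brown adipocytes, lay between 9762 and 13076 CPM in the 5 libraries. Skeletal muscle markers were unevenly spread, with a summed level of 39.2, 52.6 and 41.0 CPM in ATF4 BKO and of 130.5 and 2399.5 CPM in WT. Sample names in the deposited tables carry 1 of 2 prefixes of unstated meaning, the first on ATF4 BKO 1, ATF4 BKO 2 and WT 1 and the second on ATF4 BKO 3 and WT 2.

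The share of the transcriptome on ribosomal protein mRNAs overlapped between the genotypes. They held 1.28%, 1.76% and 1.32% of all counts in ATF4 BKO 1, 2 and 3 and 2.08% and 1.58% in WT 1 and 2. The groups overlapped, because ATF4 BKO 2 lay above WT 2. The means were 1.45% ± 0.27 (SD, n = 3) in ATF4 BKO and 1.83% ± 0.35 (SD, n = 2) in WT, and their difference of -0.38 percentage points was close to the spread within each group. Without WT 1 it was -0.13 and without WT 2 it was -0.62 percentage points. Within the first name prefix the difference was -0.56 and within the second -0.26 percentage points, each against 1 WT library. Genes encoded by the mitochondrial genome took 21.96%, 18.5% and 19.96% of the counts in ATF4 BKO and 15.6% and 15.1% in WT. With those genes left out of the total, the share of ribosomal proteins was 1.64%, 2.16% and 1.64% in ATF4 BKO and 2.46% and 1.86% in WT, with the libraries in nearly the same order.

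The balance of the subunits varied little by summed TPM and depended on the measure. The summed TPM (a level per length, scaled to the same total in each library) of large subunit genes divided by that of small subunit genes was 1.29, 1.27 and 1.30 in ATF4 BKO 1, 2 and 3 and 1.29 and 1.26 in WT 1 and 2. The groups overlapped, and on the log2 scale the means differed by 0.01, less than the SD of 0.02 in either group. By summed counts the log2 ratio was 0.43, 0.41 and 0.44 in ATF4 BKO and 0.40 and 0.40 in WT, so that every ATF4 BKO library lay above both WT libraries, by 0.02 in the mean. By the mean of log2 TPM, which weights genes equally and so includes the low paralogs in full, large minus small was -0.76, -0.80 and -0.75 in ATF4 BKO and -0.72 and -0.64 in WT. Every ATF4 BKO library was thus below both WT libraries. Rpl3l, a large subunit paralog, stood at 0.35, 0.18 and 0.26 TPM in ATF4 BKO and at 0.86 and 10.76 TPM in WT. The measure was not computed without Rpl3l, so this separation cannot be read as a shift of the whole subunit. By median TPM the log2 ratio was -0.39, -0.30 and -0.24 in ATF4 BKO and -0.16 and -0.35 in WT, and the groups overlapped. The direction thus differed between measures.

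**Figure D1:**
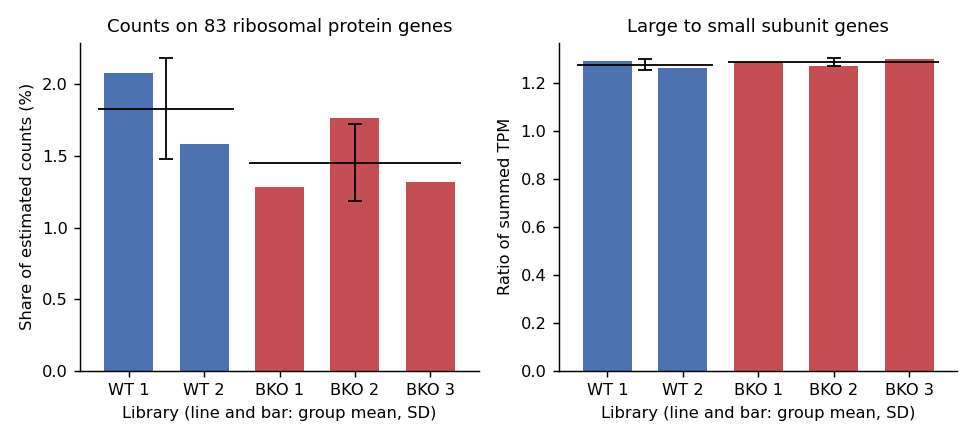
Left, the share of estimated counts (%) on the 83 ribosomal protein genes in each library. Right, the ratio of summed TPM of large to small subunit genes. Bars are single libraries, WT in blue and ATF4 BKO in red, and black lines with error bars give the group mean and SD. ATF4 BKO 2 at 1.76% lies above WT 2 at 1.58%, while the ratio of summed TPM stays between 1.26 and 1.30 in all 5 libraries.

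Whether loss of ATF4 changed single ribosomal protein mRNAs was asked gene by gene, with a fit over all 16450 genes that had at least 10 counts in at least 2 libraries. Of the 83 genes, 82 passed that filter and Rpl10l, a testis paralog of Rpl10, was listed at 0 in all 5 libraries. None of the 82 was called by edgeR's quasi-likelihood test at an adjusted p of 0.05, where 0.0% of all genes were called lower. An unadjusted p under 0.05 was seen in 2 of the 82, Rpl3l and Rpl5, both lower, beside 3.42% of all genes. DESeq2 called 1, Rpl3l, beside 0.608% of all genes called lower.

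The direction was uniform but small. All 82 genes had a log2 fold change below 0, as did 48.8% of all genes tested. Their median was -0.24, with -0.24 for the 50 large subunit genes that passed, -0.23 for the 32 small subunit genes and 0.01 for all genes. The core genes ran from -0.57 to -0.00, with a median SE of 0.20, so that a typical gene lay little more than 1 SE below 0. Only 4 of the 82 (Rpl3l, Rpl5, Rps2 and Rps27l) were lower in every ATF4 BKO library than in both WT libraries, against 10.6% of all genes, and 0 were higher in every one.

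In the fit over all libraries, this direction depended on WT 1. Without it, the median of the members was -0.01, with 43 of the 81 genes that could be fitted below 0 and 38 above, and the core genes ran from -0.20 to 0.29. Without WT 2 the median was -0.44, and without ATF4 BKO 2 it was -0.34. Leaving out ATF4 BKO 1, the library with Xist counts, gave -0.18, and leaving out ATF4 BKO 3 gave the same value to 2 decimals. Within the first name prefix the median difference was -0.38. Within the second, which does not include WT 1, it was -0.14. In all, 71 of the 82 genes were lower in ATF4 BKO within both prefixes, beside 27.8% of all genes.

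**Figure D2:**
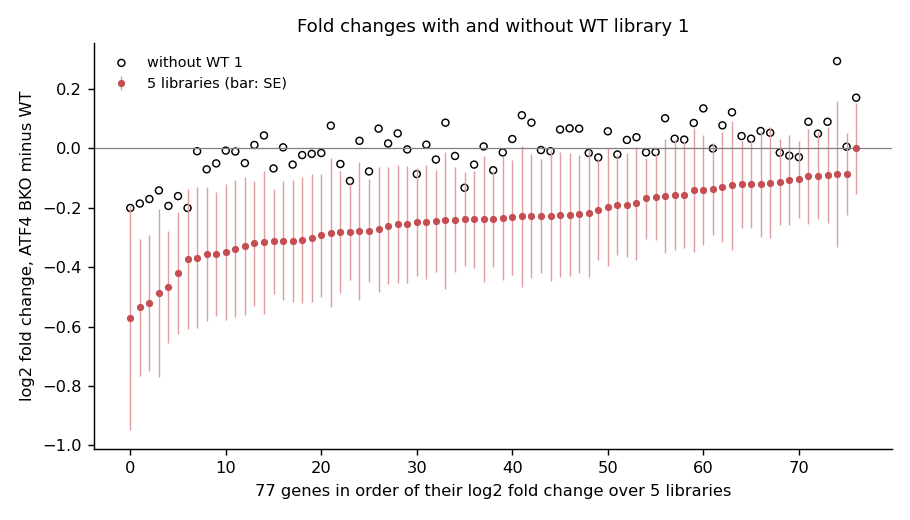
Log2 fold change of ATF4 BKO against WT for the 77 core genes, in order along the horizontal axis. Red points with SE bars are the fit to 5 libraries, and open circles the fit without WT 1. The red points run from -0.57 to -0.00 and the open circles from -0.20 to 0.29, on both sides of 0.

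The libraries themselves stood in an order that crossed the genotypes. WT 1 was the highest of the 5 libraries in 78 of the 82 genes, beside 26.2% of all genes. ATF4 BKO 2 came next, and it was below WT 2 in only 6 of the 82. ATF4 BKO 1 was below both WT libraries in 75 genes and ATF4 BKO 3 in 70. The full order, WT 1 above ATF4 BKO 2 above WT 2 above both other ATF4 BKO libraries, held in 61 of the 82 genes and in 5.0% of all genes, and in 37 large and 24 small subunit genes alike. As a median over the 82 genes, log2 CPM deviated from the gene's own mean by 0.34 in WT 1, by 0.12 in ATF4 BKO 2, by -0.07 in WT 2, by -0.20 in ATF4 BKO 1 and by -0.20 in ATF4 BKO 3. The gap of 0.42 between the 2 WT libraries, as the median over genes, was larger than the median fold change between the genotypes.

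**Figure D3:**
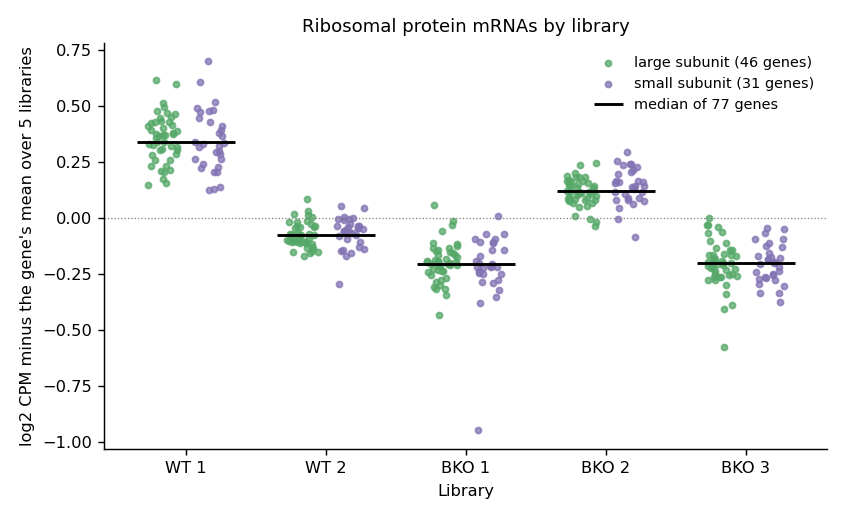
Deviation of log2 CPM from each gene's mean over 5 libraries, for the 77 core genes, with large subunit genes in green and small subunit genes in purple. Black lines are medians, from 0.34 in WT 1 and 0.12 in BKO 2 to -0.20 in BKO 1 and BKO 3. Genes of both subunits move together in each library, and 1 small subunit gene, Rps7, lies at -0.95 in BKO 1.

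Within a library, the core genes kept their levels relative to each other. Pearson's r of log2 TPM between any 2 libraries, over 77 genes that share the same depth and lengths, was 0.975 to 0.992. The median of the 82 genes past the filter was then subtracted in each library. After that, the median SD of a core gene over the 5 libraries was 0.08 on the log2 scale, beside 0.34 before. Of the core genes, 49 stayed under 0.1. No other set of genes was treated in this way, so neither r nor these SDs can be set against a background. Rpl7, Rpl26 and Rpl34, all of the large subunit, varied least, with SDs of 0.02, 0.03 and 0.03. Rpl7 was present at 263, 333 and 261 CPM in ATF4 BKO 1, 2 and 3 and at 380 and 289 CPM in WT 1 and 2, the same order as the group as a whole. Rpl3l, Rpl39l and Rps7 varied most, with SDs of 2.31, 0.85 and 0.38.

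The levels of the most abundant mRNAs differed from the rest. Rps29, which carries a zinc-binding small subunit protein, had the highest mean TPM and stood at 1250, 1660 and 1381 TPM in ATF4 BKO and at 1762 and 1660 TPM in WT. Next came Rpl41, which codes for an extremely short peptide of the large subunit, at 1308, 1641 and 1316 TPM in ATF4 BKO and at 1715 and 1449 TPM in WT. In both genes ATF4 BKO 2 reached or passed WT 2, and the groups overlapped. Rps2 followed with 1043, 1155 and 962 TPM in ATF4 BKO and 1584 and 1298 TPM in WT, and here the groups did not overlap. In CPM, Rps2 was at 632, 626 and 578 in ATF4 BKO and 872 and 647 in WT, a log2 fold change of -0.31 ± 0.18 (SE) with an adjusted p of 0.916 in edgeR.

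At the other end of the scale stood Rpl5 and Rpl12, core genes with a close copy that held more counts than the gene. Ribosomal protein genes have many processed pseudogenes, copies of the mRNA pasted into the genome, and Kallisto divides reads between transcripts that share sequence. Rpl5, which with Rpl11 and 5S ribosomal RNA forms the particle that binds Mdm2, held 802, 1257 and 1163 counts in ATF4 BKO and 2027 and 1554 in WT. The pseudogene Gm15500, in which 25.2% of the 31-base words of Rpl5 occur, held 3810, 5945 and 4761 counts in ATF4 BKO and 8458 and 6176 in WT. Together with its 4 pseudogenes Rpl5 thus had 203.8, 256.4 and 199.6 CPM in ATF4 BKO and 331.9 and 228.2 CPM in WT, with 79.9% to 82.6% of the counts on the pseudogenes. The fold change moved from -0.47 ± 0.19 for the gene alone to -0.35 ± 0.21 (log2, SE) with pseudogenes, and ATF4 BKO 2 then lay above WT 2. Whether the counts on the pseudogenes came from the pseudogenes themselves or from Rpl5 mRNA was not tested.

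Rpl12, a protein of the large subunit stalk base, showed the same pattern. It held 663, 1317 and 887 counts in ATF4 BKO and 1893 and 1329 in WT, while Gm10275 held 2232, 4050 and 2845 in ATF4 BKO and 5873 and 4029 in WT. Between 75.2% and 77.1% of the joint counts lay on the pseudogenes, and the log2 fold change was -0.49 ± 0.28 (SE) alone and -0.45 ± 0.27 with them. In Rps7, a small subunit protein, 1 library differed from the others. The gene held 1288, 3776 and 3051 counts in ATF4 BKO and 5631 and 3838 in WT, and 57.5% of the joint counts with its 6 pseudogenes lay on the pseudogenes in ATF4 BKO 1, against 26.5% to 33.8% in the other 4 libraries. With pseudogenes, Rps7 reached 133.9, 203.0 and 140.9 CPM in ATF4 BKO and 242.5 and 162.0 in WT, and its fold change went from -0.57 ± 0.38, the lowest of the core genes, to -0.35 ± 0.26 (log2, SE). For the gene alone, it was -0.30 without ATF4 BKO 1, -0.20 without WT 1 and -0.88 without WT 2.

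Adding the pseudogenes narrowed the range of the core genes. By the genes alone, the highest TPM was 29.4 to 46.0 times the lowest in the 5 libraries. With pseudogenes it was 7.01 to 8.24 times, and the lowest gene was then Rpl22 in 4 libraries and Rpl39 in WT 2. In 13 genes, the other gene that shares most of their words held over 10% of the joint counts in every library. They include Rpl27a, at 51.0% to 55.4%, and Rpl11 and Rpl28, at 27.7% to 35.7% and 31.4% to 33.0%. They also include Rps25 and Rpl23a, for which that gene is no copy but the protein-coding Trappc4 and Tlcd1. In 55 genes the gene sharing most words held under 1% in every library. The fold changes of the group were little touched, with a median of -0.23 in place of -0.24, and all 82 genes below 0. Rpl27a was picked out after its values were seen, as was the addition of pseudogenes.

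**Figure D4:**
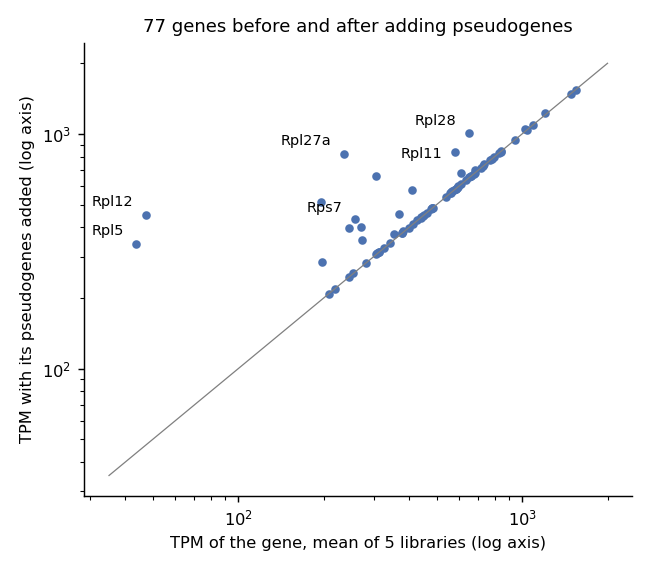
Mean TPM over 5 libraries of each of the 77 core genes alone (horizontal, log axis) and with its pseudogenes added (vertical, log axis). Points on the grey line are unchanged. Rpl5 and Rpl12, the lowest core genes alone at 43.7 and 47.2 TPM, reach 340 and 452 TPM with pseudogenes.

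The genes with the lowest fold changes, beside those above, were spread over both subunits. Rpl35 was present at 63.0, 81.3 and 59.3 CPM in ATF4 BKO and at 119 and 77.8 CPM in WT. Rps15a was present at 110, 141 and 104 CPM in ATF4 BKO and at 205 and 134 CPM in WT. In both genes WT 1 stood alone and ATF4 BKO 2 was slightly above WT 2. The log2 fold changes were -0.54 ± 0.23 and -0.52 ± 0.23 (SE), with an adjusted p of 0.911 each in edgeR, and without WT 1 they were -0.19 and -0.17. Of the Rpl35 sequence words, 88.8% occur in another gene as well, with 60.7% in Wdr38, which overlaps it on the other strand, so that its counts are less certain than those of Rps15a, at 6.98%.

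The highest fold changes were near 0. Rpl41 was present at 333, 363 and 326 CPM in ATF4 BKO and at 376 and 305 CPM in WT, a log2 fold change of -0.00 ± 0.15 (SE). Rps6, the protein whose phosphorylation reports mTORC1 activity, was present at 181, 254 and 205 CPM in ATF4 BKO and at 278 and 175 CPM in WT. Its 2 WT values enclosed all 3 ATF4 BKO values, and the log2 fold change of -0.09 ± 0.25 (SE) became 0.29 without WT 1. Rps29, Rpl19, Rplp2, Rpl28 and Rps21 followed with log2 fold changes of -0.09, -0.09, -0.09, -0.09 and -0.10.

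Among the proteins that make up the stalk of the large subunit, on which elongation factors dock, Rplp0 was at 383, 528 and 396 CPM in ATF4 BKO and at 624 and 431 CPM in WT. Rplp1 was at 242, 308 and 244 CPM in ATF4 BKO and at 363 and 254 in WT, and Rplp2 at 291, 273 and 255 in ATF4 BKO and at 316 and 267 in WT. Rplp2 was the one of them in which ATF4 BKO 1 passed WT 2 and was the highest of its group. The log2 fold changes were -0.28 ± 0.23, -0.22 ± 0.21 and -0.09 ± 0.15 (SE).

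Rpsa, which serves both in the small subunit and as a laminin receptor, was among the most counted at 546, 653 and 488 CPM in ATF4 BKO and at 881 and 571 CPM in WT. Its WT libraries differed from each other more than their mean differed from that of ATF4 BKO, and the log2 fold change was -0.37 ± 0.24 (SE). Rps27a, made as a fusion with ubiquitin, was at 141, 167 and 130 CPM in ATF4 BKO and at 184 and 161 CPM in WT, and Rpl13a, known for a role in silencing inflammatory mRNAs, at 308, 357 and 304 in ATF4 BKO and at 425 and 338 in WT. Both had a log2 fold change of -0.24, and in both ATF4 BKO 2 lay above WT 2. Rpl11, the partner of Rpl5, was at 137, 149 and 146 CPM in ATF4 BKO and at 177 and 147 CPM in WT, with a log2 fold change of -0.17 ± 0.14 (SE).

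Of the 4 genes on the X chromosome, Rps4x was at 209, 292 and 203 CPM in ATF4 BKO and at 307 and 239 CPM in WT, and Rpl10 at 261, 349 and 262 in ATF4 BKO and at 403 and 304 in WT. Rpl36a was at 47.5, 60.1 and 47.3 CPM in ATF4 BKO and at 71.96 and 49.0 CPM in WT, and Rpl39 at 76.9, 83 and 66.5 in ATF4 BKO and at 86.5 and 76.8 in WT. ATF4 BKO 1, the library with Xist counts, was below ATF4 BKO 2 in all 4, as in the group as a whole. Their log2 fold changes were -0.22, -0.28, -0.23 and -0.11.

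The paralogs behaved less alike than the core genes. Rpl3l, which replaces Rpl3 in heart and skeletal muscle, had 9, 5 and 6 counts in ATF4 BKO and 26 and 321 in WT. It was lower in every ATF4 BKO library, with WT 2 far above the rest, and the log2 fold change was -4.32 ± 1.03 (SE), with an adjusted p of 0.744 in edgeR and of 0.00498 in DESeq2. The muscle markers stood in the same libraries, highest in WT 2 and next in WT 1. With their level as a covariate the fold change of Rpl3l was 0.06 and the median of all 82 genes -0.39 in place of -0.24. That level, as mean log2 CPM, was -0.94, 0.86 and -1.47 in ATF4 BKO 1, 2 and 3 and 2.49 and 6.73 in WT. It did not overlap between the genotypes, so this fit cannot tell muscle content and genotype apart. Without either WT library Rpl3l could not be fitted, since under 2 libraries then held 10 counts. Rpl3l made up 0.16%, 0.06% and 0.11% of the joint TPM with Rpl3 in ATF4 BKO and 0.24% and 3.64% in WT. Rpl3 itself was at 241, 307 and 243 CPM in ATF4 BKO and at 340 and 258 in WT, with a log2 fold change of -0.18 ± 0.19 (SE).

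Rpl22l1 and Rpl22 were both well expressed. Rpl22l1 was at 21.6, 27.9 and 18.5 CPM in ATF4 BKO and at 39.8 and 24.8 CPM in WT, and held 27.7%, 28.5% and 24.6% of the joint TPM in ATF4 BKO and 35.1% and 26.6% in WT. The share was highest in WT 1, where ribosomal proteins as a whole were highest, and the groups overlapped. Rpl22 was at 64.1, 78.0 and 63.0 CPM in ATF4 BKO and at 91.8 and 74.3 in WT. Rps27l, a p53 target, took a comparable part beside Rps27, with 31.3%, 25.3% and 31.7% of the joint TPM in ATF4 BKO and 29.7% and 30.8% in WT. It was at 63.6, 54.2 and 58.4 CPM in ATF4 BKO and at 67.0 and 64.1 CPM in WT, so that the groups did not overlap, by a small margin, and the log2 fold change was -0.16 ± 0.12 (SE) with an adjusted p of 0.931 in edgeR. Unlike in most of the core genes, ATF4 BKO 2 was its lowest library, while Rps27 was at 103, 122 and 95.1 CPM in ATF4 BKO and at 121 and 109 in WT, with ATF4 BKO 2 the highest.

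Rpl7l1 had nearly the same level in all libraries, at 71.1, 63.3 and 69.5 CPM in ATF4 BKO and at 72.4 and 63.9 CPM in WT. Its log2 fold change was -0.00 ± 0.13 (SE), and it made up 6.15% to 7.57% of the joint TPM with Rpl7. Rpl39l had 29, 32 and 78 counts in ATF4 BKO and 56 and 123 in WT, high in ATF4 BKO 3 and WT 2, the libraries of the second name prefix. Its log2 fold change of -0.68 ± 0.50 (SE) comes from these low counts, and was -0.08 without WT 2 and -1.16 without ATF4 BKO 3.

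Start sites were searched for pyrimidine runs. Of the 83 genes, 63 had a start in the RefSeq promoter table of build GRCm38.p6, and 35 of them (55.6%) had an unbroken run of at least 8 C or T within 30 bases of a start, on the strand of the gene, beside 25.8% of all genes in that table. On the other strand the run was present in 12.7% of the 63 and in 28.7% of all genes. The letters CTTTCC occurred in that window on the strand of the gene in 19.0% against 3.4%, and CTTCCGG occurred on either strand within 300 bases around the start in 41.3% against 9.93%. Mitochondrial ribosomal protein genes had the run in 27.5% and CTTCCGG in 37.7%. A match describes the letters only. The windows below reach from 20 bases before the start to 19 after its first base, 5′ to 3′ on the strand of the gene, with the longest C or T run in capitals. They are shown for members with low and with near 0 fold changes, and for a gene and its paralog.
Rpl35, chr2:39005112-39005151, minus strand: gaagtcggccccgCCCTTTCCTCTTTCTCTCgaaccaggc
Rps15a, chr7:118116128-118116167, minus strand: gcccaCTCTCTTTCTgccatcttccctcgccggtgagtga
Rps6, chr4:86857348-86857387, minus strand: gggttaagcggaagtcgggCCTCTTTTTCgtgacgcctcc
Rpl28, chr7:4792945-4792984, plus strand: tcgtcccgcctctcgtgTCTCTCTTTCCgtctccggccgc
Rpl41, chr10:128549149-128549188, minus strand: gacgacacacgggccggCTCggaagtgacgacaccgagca
Rpl22l1, chr3:28805488-28805527, plus strand: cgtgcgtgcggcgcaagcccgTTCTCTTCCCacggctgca
Rps27, chr3:90213629-90213668, minus strand: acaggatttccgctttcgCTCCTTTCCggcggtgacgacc
Rps27l, chr9:66946066-66946105, plus strand: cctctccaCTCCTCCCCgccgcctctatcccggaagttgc
Rpl7l1, chr17:46782637-46782676, minus strand: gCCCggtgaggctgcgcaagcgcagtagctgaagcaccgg
The run spans 18 bases in Rpl35 and 10 in Rps15a, which had low fold changes, but also 10 in Rps6 and 11 in Rpl28, which had fold changes near 0. In Rpl41 and Rpl7l1 the longest run in the window is 3 bases. For Rps27l a second start in the table lies downstream and is not shown.

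With the genes taken without their pseudogenes, more abundant and shorter mRNAs had fold changes nearer to 0. Over the 77 core genes, whose mean transcript length weighted by counts ran from 372 to 1720 bases with a median of 673, the log2 fold change had a Pearson's r of -0.41 with log2 length, a description across genes that share the same 5 libraries. With log2 TPM, a level estimated from the same libraries, r was 0.45. The median was -0.19 in the 20 shortest and -0.28 in the 20 longest genes. Rpl5, the longest at 1720 bases, and Rpl12, at 1290, were the lowest in TPM as genes alone. With pseudogenes they reached 340 and 452 TPM, with log2 fold changes of -0.35 and -0.45. The correlations were not computed with pseudogenes added.

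Other genes of ribosome production and of the TOP class were compared as lists. None of the genes in the lists that follow was called by edgeR, and the counts are of fold changes below 0. Of 50 ribosome biogenesis factors, 49 were below 0, beside 48.8% of all genes tested, with a median of -0.35 on the log2 scale. In edgeR, an unadjusted p under 0.05 was seen in 3 of the 50, beside 860 of all 16450 genes tested. Rrp12, a factor of subunit export, was at 14.8, 28.2 and 17.4 CPM in ATF4 BKO and at 67.1 and 24.6 CPM in WT, and nucleolin (Ncl) at 120, 182 and 113 in ATF4 BKO and at 328 and 146 in WT. In both genes WT 1 stood far above the other 4 libraries. Of 17 TOP mRNAs outside the ribosome, 16 were below 0, with a median of -0.17. Poly(A) binding protein Pabpc1 was at 274, 311 and 243 CPM in ATF4 BKO and at 449 and 298 in WT, while vimentin (Vim) had a log2 fold change of 0.15.

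The library order of the ribosomal proteins was found in 27 of the 50 biogenesis factors and in 9 of the 17 other TOP mRNAs. It was found in 1 of 78 mitochondrial ribosomal protein genes, of which 55 were below 0, with a median of -0.06 and with 16 lower in every ATF4 BKO library, beside the 10.6% of all genes. It was also found in the 6 red blood cell markers, which include the globins and Alas2, the first enzyme of heme synthesis in red cells. In 1 of the 6, Slc4a1, it rests on a near tie of ATF4 BKO 3 and WT 2, both at 0.71 CPM. Hba-a1, an alpha globin, was at 501, 675 and 465 CPM in ATF4 BKO and at 1164 and 562 CPM in WT, and the 6 markers summed to 1477, 2028 and 1346 CPM in ATF4 BKO and to 3312 and 1705 CPM in WT. None of the 6 was at 0, with Slc4a1 the lowest at 0.57 to 1.96 CPM, and their part in the order of the ribosomal proteins was not tested. The 7 lymphocyte markers summed to 6.7, 4.2 and 5.3 CPM in ATF4 BKO and to 2.6 and 5.6 CPM in WT, and were lowest in WT 1. The 5 macrophage markers summed to 180.9, 354.5 and 117.3 CPM in ATF4 BKO and to 71.0 and 252.8 CPM in WT, and the 5 endothelial markers to 905, 856 and 1130 CPM in ATF4 BKO and to 696 and 810 CPM in WT. The 11 brown adipocyte markers summed to 25033, 21033 and 26763 CPM in ATF4 BKO and to 20273 and 22466 CPM in WT. Of these, 8 had a log2 fold change above 0 and 3 below 0, with a median of 0.17. By these sums, WT 1, without which the ribosomal proteins had a median near 0, was lowest for lymphocyte, macrophage, endothelial and brown adipocyte markers. By summed TPM, the brown adipocyte markers were lowest in ATF4 BKO 2, at 28271 against 28578 in WT 1. Single markers did not all follow, and Ucp1, Plin1 and Kdr, for example, were lowest in ATF4 BKO 2. The part of these cell types in the result was not tested.

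**Figure D5:**
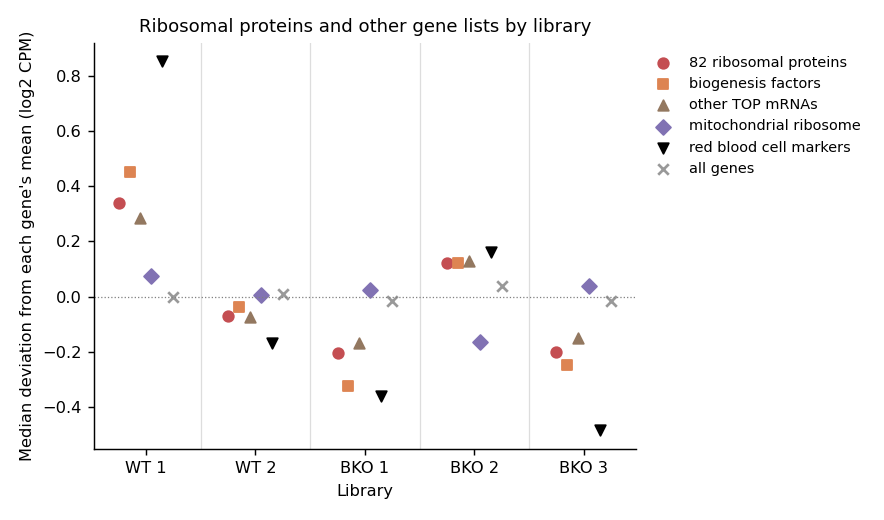
Median deviation of log2 CPM from each gene's mean over 5 libraries, by library, for 82 ribosomal protein genes, 50 biogenesis factors, 17 other TOP mRNAs, 78 mitochondrial ribosomal protein genes, 6 red blood cell markers and all 16450 genes tested. In WT 1 the ribosomal proteins lie at 0.34, the biogenesis factors at 0.45 and the red blood cell markers at 0.86, with all genes at 0.00.

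Lists of mTORC1 signaling and of genes around the 5S particle and p53 were compared as well. Of 18 genes of mTORC1 and S6 kinase signaling, 12 were below 0, with a median of -0.04. Eif4ebp1, the translation repressor that mTORC1 inactivates, was at 54.2, 63.9 and 61.2 CPM in ATF4 BKO and at 120 and 78.2 in WT, with no overlap between the groups, a log2 fold change of -0.73 ± 0.20 (SE) and an adjusted p of 0.829 in edgeR. Ddit4, a stress-induced inhibitor of mTORC1, was at 19.0, 48.8 and 42.8 CPM in ATF4 BKO and at 14.4 and 24.5 in WT, where ATF4 BKO 1 lay between the WT libraries. Of 10 genes around the 5S particle and p53, 8 were below 0, with a median of -0.19. In this list 4 genes were lower in every ATF4 BKO library, as were 2 of the 18 mTORC1 genes, beside 10.6% of all genes. Trp53 had a log2 fold change of -0.69 ± 0.26 (SE) and Cdkn1a, its target in cell cycle arrest, one of 0.23 ± 0.32.

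Genes with a ribosomal name or role that fall outside the rule were kept apart. Rack1, a scaffold bound to the small subunit, was at 213, 336 and 231 CPM in ATF4 BKO and at 440 and 261 CPM in WT, in the order of the core genes. Rps19bp1, whose product binds the small subunit protein Rps19, was at 2.47, 4.20 and 1.92 CPM in ATF4 BKO and at 15.5 and 12.3 CPM in WT, with no overlap, a log2 fold change of -2.28 ± 0.36 (SE), an adjusted p of 0.671 in edgeR and of 1.11e-05 in DESeq2. It lies 3073 bases beyond the end of Atf4, at chr15:80260615-80264315 on build GRCm38. Both genotypes carried the floxed allele, but only ATF4 BKO carried Cre. Loss of ATF4 and the Cre-recombined allele close by cannot be told apart for this gene.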

How the data were processed

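The authors sequenced stranded mRNA libraries (Illumina TruSeq, HiSeq4000) and deposited, per library, estimated counts and TPM per transcript from kallisto 0.45.0, with mm10 named in the submitters' processing notes. The annotation release is not given in the sources used here. GENCODE M21 matched 138191 of 141450 transcripts, and those outside it held 1.16% to 1.29% of the counts. Estimated counts and TPM were added up over the transcripts of a gene, with sums of counts rounded. The main test was edgeR 4.0.16 (R 4.3.3), quasi-likelihood with TMM factors and Benjamini-Hochberg adjustment at a threshold of 0.05, on genes reaching 10 counts in 2 or more libraries. DESeq2 1.42.0 and limma 3.58.1 were alternatives, and all were tested on simulated data. No 2 libraries agreed within counting noise. Words of 31 bases were compared among GENCODE transcripts, and a pseudogene holding at least 10% of a member's words was assigned to the member it shares most with. Members were named for the 8 highest and 8 lowest fold changes, the 5 highest and 3 lowest TPM, the 3 largest and 3 smallest SDs after subtraction of the library median, as paralogs with their partners, or for a known extra role, and genes of other lists for the largest change in each direction. The members and gene lists were chosen with earlier results of these data known.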

Additional observations from a re-analysis of the deposited data

How the results depend on the processing

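DESeq2 called 1 member (Rpl3l) where edgeR called 0, and every other fit that was run called 0. The median log2 fold change of the members stayed below 0 in every fit, from -0.436 without WT 2 to -0.006 without WT 1, and was -0.172 with the replicate number as a block. Under this replicate block, 0 members were called. The correlations of deviations between libraries of the same number were 0.047 and 0.2, and nothing in the labels says that a number marks a shared litter or day. On library totals alone the median was -0.334 and on log2(TPM + 1) -0.406. All genes then had medians of -0.099 and -0.124, so that relative to them the members lay at -0.235 and -0.282, beside -0.245 with TMM factors. In the main setting, members lower in every ATF4 BKO library numbered 2 without paralogs and 2 among members with under 20% shared words, beside 10.6% of all genes. Such members numbered 8 on library totals alone and 18 by TPM. Within the first and second name prefix, each with 1 WT library, they numbered 80 and 71. Without single libraries they numbered 4 to 79, the highest without WT 2 and 67 without ATF4 BKO 2. Members higher in every ATF4 BKO library numbered 11 within the second prefix and 0 to 3 without single libraries. Apart from the second prefix, the share of all genes was not computed for these other settings. None of their counts can be set against the 10.6%. Within the second prefix, with 1 library per genotype, 8831 of the 16450 genes tested were lower in ATF4 BKO, beside the 71 members. The difference in share was -1.115 percentage points for TPM. The log2 ratio of the subunits, 0.011 as reported, differed by -0.015 and 0.046 within the prefixes, by -0.057 for median TPM, by -0.092 for mean log2 TPM and by -0.025 for members with under 20% shared words.

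Of 542 fold changes of 34 named members under alternatives, 19 changed sign and 1, Rpl3l in DESeq2, passed the threshold. With the muscle covariate Rpl3l was at 0.061, and under the replicate block Rpl41 was at 0.037. The others came without single libraries, mostly WT 1, where log2 fold changes ran from -0.253 to 0.089 for Rpl19, -0.465 to 0.031 for Rpl26, -0.263 to 0.089 for Rpl28, -0.387 to 0.037 for Rpl3, -0.423 to 0.057 for Rpl34, -0.496 to 0.086 for Rpl36a, -0.158 to 0.17 for Rpl41, -0.103 to 0.104 for Rpl7l1, -0.537 to 0.025 for Rplp0, -0.474 to 0.067 for Rplp1, -0.222 to 0.049 for Rplp2, -0.176 to 0.005 for Rps29 and -0.397 to 0.293 for Rps6. The cause was not tested. With 3 against 2 libraries and a common dispersion of 0.0758, edgeR called 1 gene of 16450, and the median SE of a core gene was 0.198, close to the median fold change of the members. Depth limits Rpl3l and Rpl39l most, with as few as 5 and 29 counts in a library.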

Other observations

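Not all counts of the ribosomal protein genes lay on transcripts annotated as coding. Transcripts annotated as protein-coding held 80.7% to 81.5% of the counts of the 83 genes in the 5 libraries, and the rest lay on transcripts with retained introns, on processed transcripts without a coding frame and on targets of nonsense-mediated decay. In Rps24, chosen after its values were seen, the transcript with most counts was Rps24-203, annotated as a processed transcript, which took 38.3%, 49.5% and 45.9% of the counts of the gene in ATF4 BKO 1, 2 and 3 and 41.1% and 47.5% in WT 1 and 2. The groups overlapped, and these shares depend on how reads were divided between transcripts that share most of their sequence.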
